A study of Mus musculus with 20 samples.

Results

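Within the gluten-free diet, spleen libraries whose ID begins with the letter S were compared with spleen libraries whose ID is a plain number, across all genes. The members were defined by the sample titles alone: 5 S libraries (S1, S3, S5, S6 and S8) and 4 plain libraries (7, 8, 9 and 10), together 9 of the 20 libraries of the series. Members and the 54 gene lists used below were chosen with earlier results of these data known. The other 11 libraries came from control mice, 8 with plain IDs (1 to 8) and 3 with S IDs (S1, S2 and S6). They are used here only to show whether a difference between ID forms was also present under the control diet. All samples were whole spleen tissue of mice aged 4 weeks, and the gluten-free mice had been bred on that diet. Strain, sex, litter and what the letter S stands for are not given in the sources used here. The labels do not say that each ID is a separate mouse, so the p-values measure the spread between these libraries, which may be in part technical.

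The spleen filters blood and holds large numbers of B cells, T cells and macrophages. In young mice its red pulp also makes red blood cells, and to a lesser degree granulocytes and platelets, from dividing precursors. Red cell precursors pass through several rapid divisions while they switch on globin, haem synthesis and membrane genes, so proliferation genes and red cell genes are commonly abundant together in this tissue. Neutrophils and eosinophils make the proteins of their granules mainly while they are immature, and mature cells carry the proteins with much less of the messenger RNA. In RNA from whole tissue, fewer cells of a type and less RNA per cell cannot be told apart.

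Totals ran from 18008255 to 24268237 counts in the S libraries and from 16134584 to 22501138 in the plain libraries, and their means did not differ beyond the spread (exact permutation test, two-sided, p = 0.524, smallest possible p 0.0159). Levels are given in CPM, which are counts relative to the TMM-scaled library size. Values per library follow the order S1, S3, S5, S6, S8 and then 7, 8, 9, 10. Defining markers of B cells, T cells, red pulp macrophages, white pulp stroma and red cell precursors were present in all 9 libraries. Cd3e lay at 18.4 to 59.3 CPM. The liver markers Alb and Apoa1 stayed at or under 0.304 CPM. The list of fat cell genes varied, with a mean log2 CPM of 1.79 in plain 7, 4.55 in plain 10 and 2.48 to 3.87 in the S libraries. The skeletal muscle list lay at 0.523 to 1.39 in the plain and 0.761 to 1.37 in the S libraries. Library S1 stood apart in genes of the exocrine pancreas, an organ that lies beside the spleen. A list of 15 acinar genes took 1.22% of its counts (Wilson 95% interval 1.22 to 1.23%, counting error only), against 0.0031% in S3 and 0.000594 to 0.00114% in the other 7 libraries. On the first principal component of log2 CPM, with 47.4% of the variance, the plain libraries lay between -51.7 and -43.3, S6 lay at -3.52 and the other S libraries between 22.6 and 73.1. S libraries were also more variable: the median SD of log2 CPM over genes was 0.317 in S and 0.195 in plain, and 74.4% of genes had the larger SD in S.

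The 2 ID forms differed in a large part of the transcriptome. Of 18362 genes tested, 5860 (31.9%) passed edgeR's quasi-likelihood test at an adjusted p under 0.05, 3041 higher in S (16.6%) and 2819 lower in S (15.4%). Counts in the gene lists below are to be read beside the last 2 shares. At an unadjusted p under 0.05 there were 8236 genes. Among the calls, 715 genes were at least 2-fold higher and 843 at least 2-fold lower, and 37 were at least 4-fold higher against 206 at least 4-fold lower. All 5 S libraries lay above all 4 plain libraries in 3382 genes (18.4%) and below them in 1830 genes (9.97%). The median log2 fold change of all genes was -0.11 on TMM scaling and -0.37 with scaling by library totals alone, under which 7415 genes were called and the share of calls that were higher in S was 22.0% instead of 51.9%.

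Genes of the red cell lineage were higher in the S libraries. Of 30 tested genes of the red cell precursor list, 27 rose, none fell, and the list's median log2 fold change was 1.21 beside -0.11 for all genes. Kel, a blood group protein of the red cell membrane, read 687, 634, 921, 470.2 and 1173 CPM in the S libraries and 171, 282, 261 and 238 CPM in the plain libraries. Every S library lay above every plain library, with means of 777 ± 274 and 238 ± 48.1 CPM (SD, n = 5 and 4; log2 fold change 1.66 ± 0.26 (SE), edgeR adjusted p = 0.00287). Slc4a1, the anion exchanger band 3 that is the chief membrane protein of red cells, read 5012, 5111, 5299.8, 3250.5 and 8402 CPM in the S libraries and 1367, 2645, 2299.6 and 2059.9 CPM in the plain libraries. The lowest S library was S6, and it still exceeded the highest plain library, 8 (log2 fold change 1.32 ± 0.27 (SE), edgeR adjusted p = 0.00493). Alas2, the first enzyme of haem synthesis in red cell precursors, rose by 1.21 (log2, edgeR adjusted p = 0.00511). Car2, a carbonic anhydrase, rose by 1.45 (edgeR adjusted p = 0.00304), and Klf1, a transcription factor of the lineage, rose by 1.18 (edgeR adjusted p = 0.00404).

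Not every adult globin passed the test. Hbb-bs, a beta globin, read 54030, 49877, 60958, 35157 and 56577 CPM in the S libraries and 18789, 27764, 24902 and 26638 CPM in the plain libraries and rose (log2 fold change 1.02 ± 0.21 (SE), edgeR adjusted p = 0.00563). Hba-a1, an alpha globin, averaged 73336 ± 13083 CPM in S and 45471 ± 12660 CPM in plain libraries with overlapping ranges and did not pass the test (log2 fold change 0.64 ± 0.24 (SE), edgeR adjusted p = 0.06402). Hbb-bt, the other adult beta globin of this locus, did not pass either (log2 fold change 0.47 ± 0.28 (SE), edgeR adjusted p = 0.2003). Hba-a1 passed in 7 of the alternatives tried, DESeq2 (adjusted p = 0.00519) and limma-voom (adjusted p = 0.0401) among them. Without S6 both passed (edgeR adjusted p = 0.00828 and 0.0277), and Hba-a1 also passed without plain 8 (edgeR adjusted p = 0.0499). These globins are near-identical copies whose reads the counting could split, so the values of single globin genes are uncertain. Hbb-y, an embryonic beta-like globin, read 0.959, 1.82, 1.67, 1.22 and 2.16 CPM in the S libraries and 0.506, 0.514, 0.1898 and 0.319 CPM in the plain libraries. At this low level all S libraries lay above all plain libraries (log2 fold change 1.97 ± 0.39 (SE), edgeR adjusted p = 0.00445). All globins together took 12.9% ± 1.84 of counts in S and 9.17% ± 1.93 in plain libraries (SD, n = 5 and 4; exact permutation test, two-sided, p = 0.0317, adjusted over 9 library measures 0.0357).

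**Figure D1:**
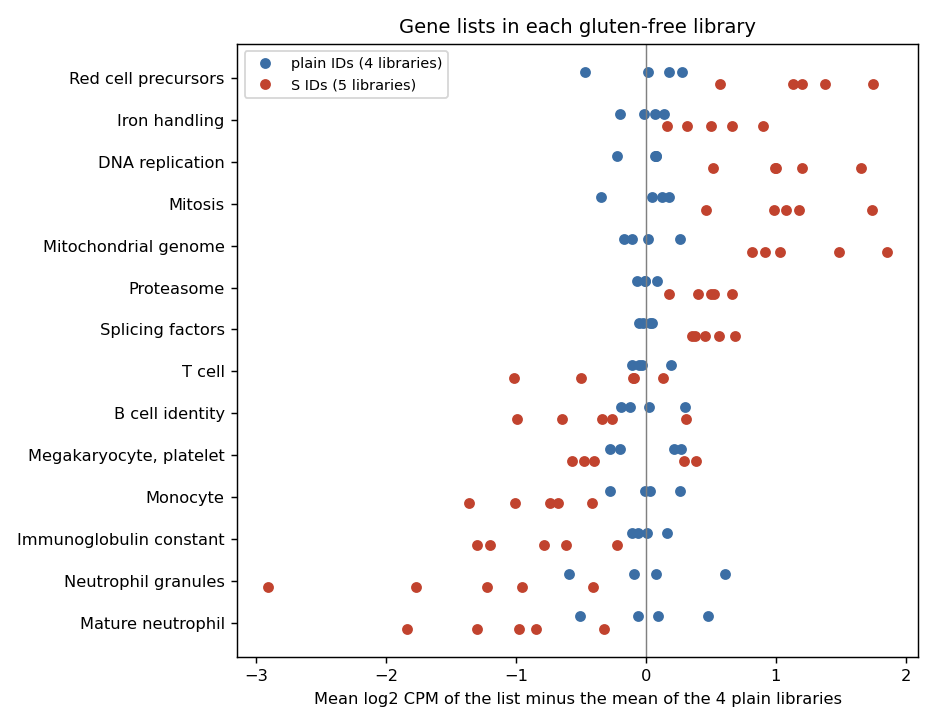
Mean log2 CPM of each gene list in each gluten-free library, drawn as the difference from the mean of the 4 plain libraries (horizontal axis, log2 units), with 1 point per library. The 5 S libraries lie above the plain libraries in the red cell, DNA replication, mitosis and mitochondrial lists, while the points of the 2 forms overlap in the T cell, B cell identity and megakaryocyte lists.

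Part of the genes of iron handling were higher in S. Of 14 tested genes of iron handling 8 rose and none fell (median 0.51), and 2 fell without S1. Tfrc, the transferrin receptor that brings iron into the cell, read 1495, 1454, 1737, 1055 and 2561 CPM in the S libraries and 495, 655, 613 and 607 CPM in the plain libraries (log2 fold change 1.44 ± 0.23 (SE), edgeR adjusted p = 0.00291). Tfr2, a related receptor that also associates with the erythropoietin receptor, averaged 67.8 ± 17.1 CPM in S and 27.6 ± 3.61 CPM in plain libraries (log2 fold change 1.25 ± 0.19 (SE), edgeR adjusted p = 0.00282). In both receptors all S libraries lay above all plain libraries. Erfe encodes erythroferrone, the hormone by which red cell precursors lower hepcidin in the liver. It read 4.29, 4.77, 3.03, 3.44 and 7.86 CPM in the S libraries and 1.01, 1.71, 0.873 and 1.44 CPM in the plain libraries, all S libraries above all plain ones (log2 fold change 1.85 ± 0.33 (SE), edgeR adjusted p = 0.00329). Slc40a1, the iron exporter ferroportin that splenic macrophages carry, had overlapping ranges and did not pass the test (log2 fold change -0.06 ± 0.24 (SE), edgeR adjusted p = 0.8505).

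Cell division genes were higher in S to a similar degree. All 24 genes of DNA replication and all 24 genes of mitosis rose, with medians of 1.07 and 1.08, and all S libraries lay above all plain libraries in 23 genes of each list. Pcna, the sliding clamp of DNA polymerase, read 506, 498, 591, 327 and 804 CPM in the S libraries and 209.6, 237, 251 and 239 CPM in the plain libraries (log2 fold change 1.17 ± 0.21 (SE), edgeR adjusted p = 0.00345). Mki67, a protein of dividing cells, read 2680.2, 2613, 2907, 1680.1 and 4839 CPM in the S libraries and 799.7, 1218, 1161 and 1071 CPM in the plain libraries (log2 fold change 1.42 ± 0.26 (SE), edgeR adjusted p = 0.00369). In both genes S8 was the highest and S6 the lowest of the S libraries, and S6 lay above every plain library. Cdc6, which loads the replicative helicase, rose by 1.38 (edgeR adjusted p = 0.003298). Ccne1, the cyclin E1 of S phase entry, rose by 1.27 (edgeR adjusted p = 0.00294). The helicase subunits Mcm5 and Mcm6 rose by 0.98 and 0.93 (edgeR adjusted p = 0.00414 and 0.00503). Of 13 tested replication-dependent histone genes 1 rose (7.69%, under the 16.6% of all genes) and none fell, and without S6 the count was 4. Their messages lack a poly(A) tail in most cells, and how the libraries selected RNA is not given in the sources used here.

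The red cell, replication and mitosis lists moved together, so the bases before their gene starts were searched for 4 short motifs known from these gene classes. Windows were the 250 bases upstream of the RefSeq gene start (GRCm38.p6), which 12136 of the genes tested had, both strands were searched, and no motif contains another. AGATAA, the core read by GATA factors, stood in 8 of 20 red cell windows (40%) and in 6.4% of all windows, but also in 5 of 11 windows of the basophil, mast cell and eosinophil list (45.5%), which held lower genes. Monocyte windows held it in 20% and neutrophil granule windows in 13.3%. TTTNNCGC, read by E2F factors, stood in 7 of 20 DNA replication windows (35%) and in 6.73% of all windows. CCAAT, the box of many mitotic promoters, stood in 17 of 20 mitosis windows (85%), in 65% of replication windows, in 55% of red cell windows, in 46.7% of neutrophil granule windows and in 35.7% of all windows. GAGGAA, an ETS motif known from myeloid promoters, stood in 8 of 15 neutrophil granule windows (53.3%), in 6 of 10 monocyte windows (60%) and in 23.1% of all windows. It also stood in 35% of red cell windows and in 36.4% of windows of the basophil, mast cell and eosinophil list. These matches describe letters and are not evidence of binding. The windows of 6 genes that were called are shown so that the motif can be seen in place, with the motif on either strand in capitals and all else in lower case, 5′ to 3′ on the strand of the gene.
Rhd: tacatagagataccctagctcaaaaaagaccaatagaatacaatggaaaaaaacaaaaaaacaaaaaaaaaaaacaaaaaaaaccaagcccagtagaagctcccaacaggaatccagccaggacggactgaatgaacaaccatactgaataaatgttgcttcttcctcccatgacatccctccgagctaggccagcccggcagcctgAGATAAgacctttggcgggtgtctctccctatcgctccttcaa
Trim10: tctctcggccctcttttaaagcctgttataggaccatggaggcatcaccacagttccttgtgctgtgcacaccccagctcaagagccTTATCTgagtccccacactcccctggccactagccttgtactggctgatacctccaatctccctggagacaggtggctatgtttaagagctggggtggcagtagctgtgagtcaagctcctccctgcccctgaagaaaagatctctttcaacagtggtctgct
Mcm5: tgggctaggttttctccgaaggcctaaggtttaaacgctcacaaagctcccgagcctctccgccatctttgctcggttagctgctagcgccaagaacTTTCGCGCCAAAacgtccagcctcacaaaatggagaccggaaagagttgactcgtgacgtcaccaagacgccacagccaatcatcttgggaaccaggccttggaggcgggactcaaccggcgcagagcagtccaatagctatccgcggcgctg
Mcm6: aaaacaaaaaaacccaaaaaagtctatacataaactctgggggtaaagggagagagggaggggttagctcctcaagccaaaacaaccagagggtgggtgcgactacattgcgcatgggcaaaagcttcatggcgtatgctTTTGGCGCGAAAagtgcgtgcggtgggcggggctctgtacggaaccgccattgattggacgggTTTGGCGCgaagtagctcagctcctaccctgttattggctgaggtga
Mki67: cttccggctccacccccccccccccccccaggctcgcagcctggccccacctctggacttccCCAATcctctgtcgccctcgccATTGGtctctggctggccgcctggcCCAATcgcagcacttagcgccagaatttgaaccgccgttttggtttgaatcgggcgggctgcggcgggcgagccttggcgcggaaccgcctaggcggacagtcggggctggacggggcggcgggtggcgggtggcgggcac
Mmp8: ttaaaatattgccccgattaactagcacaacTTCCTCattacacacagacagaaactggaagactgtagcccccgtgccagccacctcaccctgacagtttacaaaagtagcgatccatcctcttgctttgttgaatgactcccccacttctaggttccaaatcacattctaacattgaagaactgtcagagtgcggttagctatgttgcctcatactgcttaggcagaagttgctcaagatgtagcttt
Rhd, a subunit of the Rh complex of red cells (chr4:134864286-134864535 on the plus strand; log2 fold change 1.21, edgeR adjusted p = 0.00338), shows AGATAA, as does Trim10, a gene of terminal red cell maturation (chr17:36869324-36869573 on the plus strand; log2 fold change 1.44, edgeR adjusted p = 0.00345). Mcm5 (chr8:75109259-75109508 on the plus strand) and Mcm6 (chr1:128359706-128359955 on the minus strand) show TTTNNCGC. Mki67 (chr7:135716380-135716629 on the minus strand) shows CCAAT. Mmp8, the collagenase of neutrophil granules (chr9:7558179-7558428 on the plus strand), shows GAGGAA.

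The largest decreases in S were in eosinophil granule genes. Ranked by fold change, the lowest 12 of the called protein-coding genes (mean CPM 1 or more) included Epx, Ear6, Prg2, Ear2, Siglecf and Prg3, with Alox15, a lipoxygenase of eosinophils and some macrophages. Prg2, the major basic protein of the granule, read 4.57, 1.78, 1.42, 2.35 and 1.55 CPM in the S libraries and 48.2, 86.3, 62.1 and 96.8 CPM in the plain libraries. The highest S library, S1, lay far below the lowest plain library, 7 (log2 fold change -5.03 ± 0.32 (SE), edgeR adjusted p = 4.28e-05). Epx, eosinophil peroxidase, read 0.903, 0.0868, 0.0618, 0.1305 and 0.277 CPM in the S libraries and 9.92, 17.9, 10.7 and 18.96 CPM in the plain libraries (log2 fold change -5.71 ± 0.49 (SE), edgeR adjusted p = 0.000456). Ear2, an eosinophil ribonuclease, read 2.93, 0.347, 0.6796, 1.39 and 1.22 CPM in the S libraries and 12.7, 16.03, 15.3 and 25.98 CPM in the plain libraries (log2 fold change -3.80 ± 0.43 (SE), edgeR adjusted p = 0.00115). Ear6, a related ribonuclease gene, was at 0 in 4 S libraries, where a count of 0 allows up to 0.13 to 0.185 CPM (3 counts). It read 0.339 CPM in S1 and 1.097, 3.34, 1.63 and 3.67 CPM in the plain libraries (edgeR adjusted p = 0.00288). Siglecf, a surface lectin of eosinophils, averaged 0.536 ± 0.2896 and 2.81 ± 1.31 CPM (log2 fold change -2.42 ± 0.44 (SE), edgeR adjusted p = 0.00345). Prg3 averaged 1.56 ± 0.618 and 7.07 ± 2.72 CPM (log2 fold change -2.21 ± 0.32 (SE), edgeR adjusted p = 0.00267). Alox15 fell by 3.33 on the log2 scale (edgeR adjusted p = 0.004498).

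The cytokine and chemokine receptors Ccr3 and Il5ra did not pass the test, unlike the surface lectin Siglecf. Ccr3, the eotaxin receptor, read 38.4, 29.1, 10.01, 10.96 and 39.7 CPM in the S libraries and 23.97, 34.98, 35.6 and 23.2 CPM in the plain libraries, with overlapping ranges (log2 fold change -0.26 ± 0.37 (SE), edgeR adjusted p = 0.6102). Il5ra, the interleukin 5 receptor chain, did not pass either (log2 fold change -0.50 ± 0.32 (SE), edgeR adjusted p = 0.2397) except without S6 (edgeR adjusted p = 0.0143). Of 12 tested genes of the basophil, mast cell and eosinophil list 5 fell (41.7%, beside 15.4% of all genes) and none rose. Low Prg2 was not restricted to gluten-free S libraries. Under the control diet Prg2 read 3.22, 4.64 and 6.44 CPM in S1, S2 and S6, 1.78 CPM in plain library 2 and 2.66 CPM in plain library 5, against 27.8 to 48.0 CPM in the other 6 plain control libraries. The S minus plain difference of Prg2 under the control diet was -2.54 (edgeR adjusted p = 0.115), and the difference between the diets was -2.42 ± 0.90 (edgeR adjusted p = 0.0522).

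Neutrophil genes were lower in S. Of 18 granule genes 13 fell and none rose (median -1.37), and of 13 genes of mature neutrophils 10 fell and 1 rose (median -1.31). Ltf, the iron-binding lactoferrin of secondary granules, read 391, 254, 66.7, 274 and 139.7 CPM in the S libraries and 366, 645, 606 and 929.6 CPM in the plain libraries. S1 reached above plain library 7, so the ranges overlapped, while S5 and S8 lay lowest (log2 fold change -1.56 ± 0.40 (SE), edgeR adjusted p = 0.0138). Ngp, another secondary granule protein, fell (log2 fold change -1.32 ± 0.42 (SE), edgeR adjusted p = 0.0332). Mpo, the myeloperoxidase of primary granules (log2 fold change -1.19 ± 0.41 (SE), edgeR adjusted p = 0.0425), also fell. So did S100a8, a calcium-binding protein of the cytosol (log2 fold change -1.80 ± 0.44 (SE), edgeR adjusted p = 0.0101), Mmp8 (log2 fold change -2.17 ± 0.41 (SE), edgeR adjusted p = 0.003799) and Padi4, which citrullinates histones (log2 fold change -2.21 ± 0.46 (SE), edgeR adjusted p = 0.00542). The member that rose was Mxd1, a partner of MAX that opposes MYC (log2 fold change 0.75 ± 0.16 (SE), edgeR adjusted p = 0.00609). Library 7 was the lowest of the plain libraries in Ltf, Ngp, Mpo, S100a8, Mmp8 and Padi4, and S5 was the lowest of the S libraries. The Ngp call was lost without plain 8, 9 or 10 or without S8 (edgeR adjusted p = 0.0659, 0.0621, 0.0996 and 0.0674). The Mpo call was lost without plain 8, 9 or 10 or without S3, S6 or S8 (edgeR adjusted p = 0.0602 to 0.123). Without plain 10 the counts of lower genes were 8 of 18 for granules and 6 of 13 for mature neutrophils.

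Monocyte genes also fell, in 10 of 13 tested, with none higher (median -0.86). Ccr2, the chemokine receptor of inflammatory monocytes, read 26.3, 19.7, 14.95, 31.4 and 17.5 CPM in the S libraries and 41.9, 45.4, 40.9 and 54.95 CPM in the plain libraries, without overlap (log2 fold change -1.11 ± 0.19 (SE), edgeR adjusted p = 0.00304). Csf1r, the receptor that keeps monocytes and macrophages alive, fell (log2 fold change -0.58 ± 0.13 (SE), edgeR adjusted p = 0.00641), and Lyz2, the lysozyme of myeloid cells, fell (log2 fold change -0.74 ± 0.15 (SE), edgeR adjusted p = 0.00542). Lyz1, a near-identical copy better known from Paneth cells, did not pass the test (log2 fold change -0.31 ± 0.19 (SE), edgeR adjusted p = 0.228). Resident macrophages of the red pulp showed less: of 17 genes of splenic macrophages 4 fell (23.5%, beside 15.4% of all genes) and none rose (median -0.41). This count of lower genes was 8 without S1, 2 without plain 8 and 1 without plain 10. Spic, their transcription factor, read 57.3, 49.8, 32.1, 38.1 and 52.3 CPM in the S libraries and 47.6, 50.9, 53.5 and 47.9 CPM in the plain libraries (log2 fold change -0.17 ± 0.15 (SE), edgeR adjusted p = 0.377). Vcam1, an adhesion molecule they carry, did not pass the test (log2 fold change -0.32 ± 0.21 (SE), edgeR adjusted p = 0.256).

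**Figure D2:**
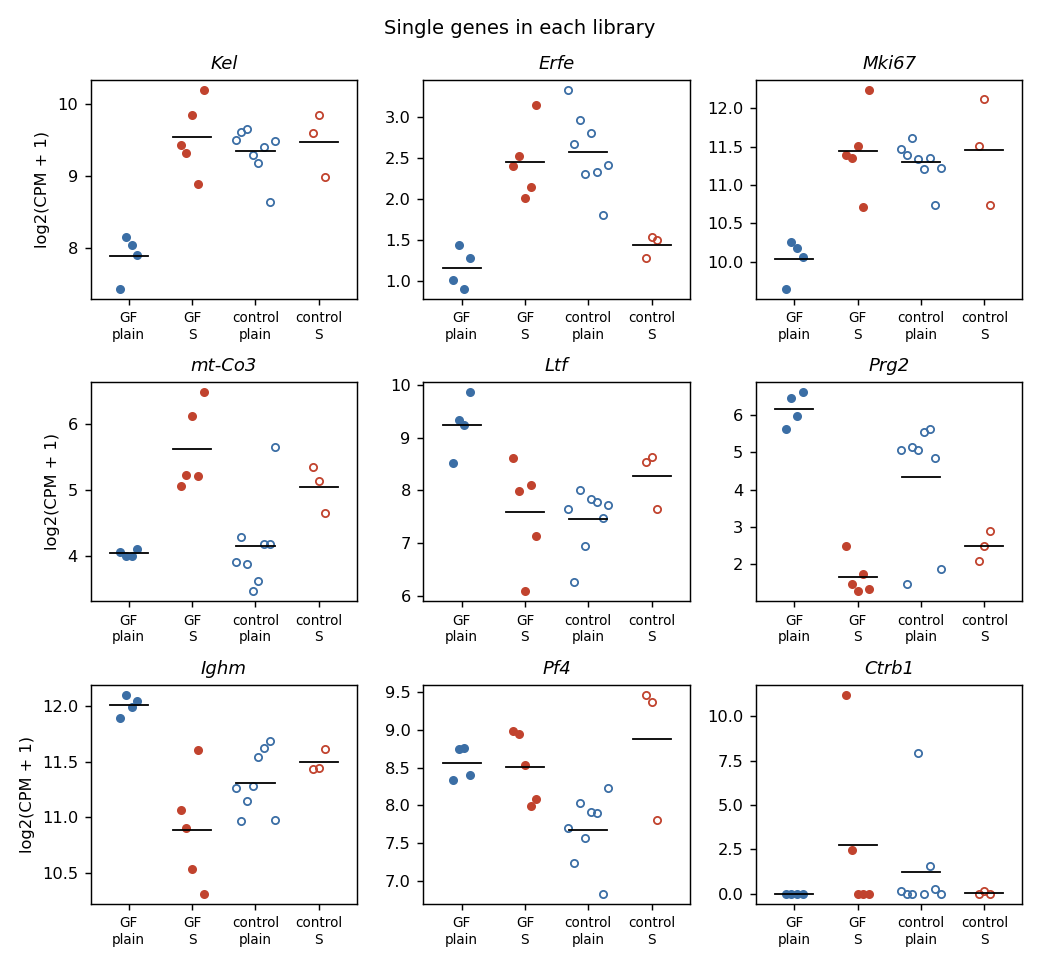
Level of 9 genes in every library as log2(CPM + 1) on the vertical axis, with 1 point per library, filled for the gluten-free diet (GF) and open for the control diet, and a black line at the group mean. In Kel and Mki67 the 4 plain gluten-free libraries lie below all other libraries, Prg2 is low in all S libraries and in 2 plain control libraries, and Ctrb1 is high in 1 S library.

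Antibody genes were lower in S while genes that mark B cells as such mostly did not pass the test. Immunoglobulin genes took 0.443% ± 0.177 of counts in S and 1.07% ± 0.0266 in plain libraries (SD, n = 5 and 4; exact permutation test, two-sided, p = 0.0159, the smallest that 9 libraries can give, adjusted over 9 library measures 0.0286). Of 159 variable region genes 111 fell and none rose (median -1.35), among them 67 of 89 heavy chain and 41 of 66 kappa chain variable genes. Ighm, the constant region of IgM, read 2136, 1909, 1478, 3108 and 1267 CPM in the S libraries and 3799, 4398, 4077 and 4220.2 CPM in the plain libraries, without overlap (log2 fold change -1.11 ± 0.22 (SE), edgeR adjusted p = 0.004498). Igkc, the kappa constant region, fell (log2 fold change -1.09 ± 0.21 (SE), edgeR adjusted p = 0.00401). Ighg2c, a constant region of IgG, also fell, and its plain values spread from 17.0 to 69.7 CPM (log2 fold change -1.57 ± 0.36 (SE), edgeR adjusted p = 0.00792). Jchain, which joins the units of IgM and IgA, fell (log2 fold change -1.18 ± 0.22 (SE), edgeR adjusted p = 0.00386). In all, 8 of 13 plasma cell genes fell with none higher (median -0.59), or 5 of 13 without plain 7 or plain 10. In the B cell identity list 1 of 15 genes fell (6.67%, under the 15.4% of all genes) and none rose (median -0.41). Cd79a, a chain of the B cell receptor complex, and Ighd, the constant region of IgD on naive B cells, did not pass the test (-0.21 and -0.20 log2, edgeR adjusted p = 0.467 and 0.552). Library S6 weighed on these values: without it 13 of 15 identity genes fell (median -0.58, against 0 called without any other single library), Cd79a among them (edgeR adjusted p = 0.0448). Variable region genes resemble each other, and how reads that match several of them were counted is not given in the sources used here.

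Few T cell genes passed the test. List counts here stand beside 15.4% of all genes lower in S and 16.6% higher. In the T cell list 1 of 20 genes fell, Bcl11b, a T lineage transcription factor (log2 fold change -0.57 ± 0.19 (SE), edgeR adjusted p = 0.0411), and none rose (median -0.31). Cd3e, a chain of the T cell receptor complex, read 26.3, 33.2, 36.9, 47.02 and 18.4 CPM in the S libraries and 59.3, 42.6, 45.6 and 43.9 CPM in the plain libraries. It missed the threshold here (log2 fold change -0.61 ± 0.22 (SE), edgeR adjusted p = 0.0501) and passed it in 11 of the alternatives tried, DESeq2 and limma-voom among them. Foxp3, the regulatory T cell factor, did not pass the test (log2 fold change -0.26 ± 0.22 (SE), edgeR adjusted p = 0.361), and 1 of 13 genes of its list fell (3 without S6). Of 20 natural killer and cytotoxic genes 6 fell (30%, beside 15.4% of all genes). Among these was Klrk1, the activating receptor NKG2D (log2 fold change -0.69 ± 0.19 (SE), edgeR adjusted p = 0.01904). The count of lower genes in this list was 2 without plain 7 or plain 10 and 3 without plain 9. Plasmacytoid dendritic cell genes fell in 6 of 11 cases (median -0.70), or in 3 without plain 7 or plain 10. Siglech, their surface lectin, read 8.01, 7.29, 9.21, 19.01 and 8.24 CPM in the S libraries and 28.1, 27.5, 21.6 and 24.1 CPM in the plain libraries. S6 lay apart from the other S libraries and still below all plain libraries (log2 fold change -1.33 ± 0.25 (SE), edgeR adjusted p = 0.00391). Among conventional dendritic cell genes 5 of 13 fell, or 3 without plain 7. Cd209a, a lectin of monocyte-derived and type 2 dendritic cells, read 4.12, 2.82, 3.09, 3.78 and 3.21 CPM in the S libraries and 10.04, 8.83, 9.83 and 8.73 CPM in the plain libraries (log2 fold change -1.51 ± 0.15 (SE), edgeR adjusted p = 0.000863). Cd74, the invariant chain that guides MHC class II molecules, fell (log2 fold change -0.76 ± 0.19 (SE), edgeR adjusted p = 0.0132). Of 10 genes of the class II list 3 fell. That count was 9 of 10 without S6, 1 without plain 7, 8 or 10, and 0 without both S1 and S3, and there Cd74 missed the threshold (edgeR adjusted p = 0.0572). Without S6 the T cell list had 4 lower genes and Cd3e passed the test (edgeR adjusted p = 0.00848), whereas the list had 0 called genes without plain 7, 8 or 9 or without S1, S3 or S8. The Bcl11b call was lost without plain 7, 8 or 9 or without S1, S3 or S8 (edgeR adjusted p = 0.0597 to 0.1595). The Klrk1 call was lost without plain 7 or 10 (edgeR adjusted p = 0.0703 and 0.05101).

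Cytokine genes gave little. Tnf, Ifng and Il10 had overlapping ranges and did not pass the test (log2 fold changes -0.40, -0.24 and -0.66, edgeR adjusted p = 0.263, 0.767 and 0.1698), Ifng and Il10 at or under 1.26 CPM in each of the 9 libraries. Without S6 Tnf was lower in S (edgeR adjusted p = 0.0442). Tgm2, the transglutaminase that deamidates gluten peptides in coeliac disease, did not pass the test (log2 fold change 0.07 ± 0.12 (SE), edgeR adjusted p = 0.675). Of 19 tested genes near human coeliac disease loci 1 rose (5.26%) and 5 fell (26.3%), beside 16.6% and 15.4% of all genes. Without S6 10 of them fell, against 1 to 3 without any other single library. Type I interferon response genes were mixed, with 5 of 19 higher (26.3%) and 2 lower (10.5%), beside 16.6% and 15.4% of all genes. Without plain 8, plain 9 or S5 the count of higher genes was 3, and the count of lower genes was 0 or 1 without any single library. Rsad2, the antiviral enzyme viperin, read 555, 496, 539, 351 and 727 CPM in the S libraries and 154, 309, 241 and 239 CPM in the plain libraries (log2 fold change 1.13 ± 0.23 (SE), edgeR adjusted p = 0.00476). Isg15, a ubiquitin-like antiviral protein, rose (log2 fold change 1.08 ± 0.17 (SE), edgeR adjusted p = 0.00287).

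No megakaryocyte gene was called between the forms: 0 of 17 passed edgeR's test at the adjusted threshold, and 0 had an unadjusted p under 0.05 (median -0.19). Without S1 and S3, the S libraries with acinar genes, 8 of 17 were lower (median -0.56). Pf4, platelet factor 4, read 507, 490.2, 369, 253 and 269 CPM in the S libraries and 321, 428, 434 and 338 CPM in the plain libraries (log2 fold change -0.06 ± 0.21 (SE), edgeR adjusted p = 0.827). Ppbp, the platelet basic protein, gave log2 fold change -0.02 ± 0.22 (SE), edgeR adjusted p = 0.962.

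Genes of the mitochondrial genome were higher in S. All 12 tested protein genes rose (median 1.19), and all S libraries lay above all plain libraries in each. mt-Co1, a subunit of cytochrome c oxidase, read 8130.1, 8793, 16729, 9964 and 15588 CPM in the S libraries and 6567, 4277, 4586 and 4961 CPM in the plain libraries (log2 fold change 1.18 ± 0.25 (SE), edgeR adjusted p = 0.00602). Likewise mt-Co3, another subunit of it, rose by 1.72 (edgeR adjusted p = 0.00304). Nuclear genes of oxidative phosphorylation rose in 12 of 22 cases with a smaller median of 0.35, for example Atp5b, the catalytic subunit of ATP synthase (log2 fold change 0.58 ± 0.15 (SE), edgeR adjusted p = 0.0156). Splicing factors rose in 15 of 19 cases (median 0.45), Hnrnpa2b1 among them (log2 fold change 0.75 ± 0.13 (SE), edgeR adjusted p = 0.00326), and proteasome genes in 15 of 20 (median 0.43). Ribosomal protein genes rose in 11 of 28 cases with none lower, in 17 without S6 and in 4 without plain 8, 9 or 10, S3 or S5, and their median of 0.22 became -0.05 with scaling by library totals alone, where 2 rose and 1 fell. Glycolysis went the other way in part: 7 of 17 genes fell and 2 rose (1 without plain 10), and Pkm, the pyruvate kinase, fell (log2 fold change -0.55 ± 0.14 (SE), edgeR adjusted p = 0.0133).

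Shares of several RNA classes differed between the forms as well. The rRNA biotype took 0.115% ± 0.0289 of counts in S and 0.372% ± 0.0638 in plain libraries. Genes of the miRNA biotype took 0.0508% ± 0.00882 and 0.191% ± 0.0185 (SD, n = 5 and 4; exact permutation test, two-sided, p = 0.0159 for each, adjusted over 9 library measures 0.0286). Mitochondrial rRNA went the other way, with 0.414% ± 0.122 and 0.162% ± 0.0248. Mitochondrial protein genes took 2.64% ± 0.672 and 1.51% ± 0.323 (exact permutation p = 0.0317), and genes detected numbered 23490 ± 680 and 24665 ± 345 (exact permutation p = 0.0317). Of 9 ways to leave out 1 library, 7 took the p of each of the last 2 measures to 0.0571 or 0.0714. These were, for the mitochondrial share, all but S1 and plain 7, and for genes detected all but S6 and plain 10. With 1 library left out fewer splits exist, and p cannot lie under 0.0286 without an S library or 0.0357 without a plain library. The rise in p comes with this smaller number of splits. Both differences kept their direction, at 0.903 to 1.316 points for the mitochondrial share and -1408 to -988.2 for genes detected. Under the control diet the 3 S libraries held 0.0681 to 0.161% rRNA, plain library 5 held 0.115% and the other plain libraries 0.38 to 0.482%. Lars2, annotated as mitochondrial leucyl-tRNA synthetase, read 227, 291, 221, 169 and 164 CPM in the S libraries and 568, 616, 516 and 594 CPM in the plain libraries (log2 fold change -1.47 ± 0.16 (SE), edgeR adjusted p = 0.00115). In control it was low in S libraries and in plain library 5 as well, at 261, 141 and 143 CPM and 192 CPM, against 745 to 946 CPM in the other 7 plain libraries. Rn7sk, a small RNA that restrains transcription elongation, fell in both diets (-1.08 and -1.63, edgeR adjusted p = 0.00541 and 0.0466). Among protein-coding genes the share that was lower in S rose with gene length, from 11.6% in the shortest to 22.1% in the longest of 5 equal groups. The part of these classes in the other differences was not tested.

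**Figure D3:**
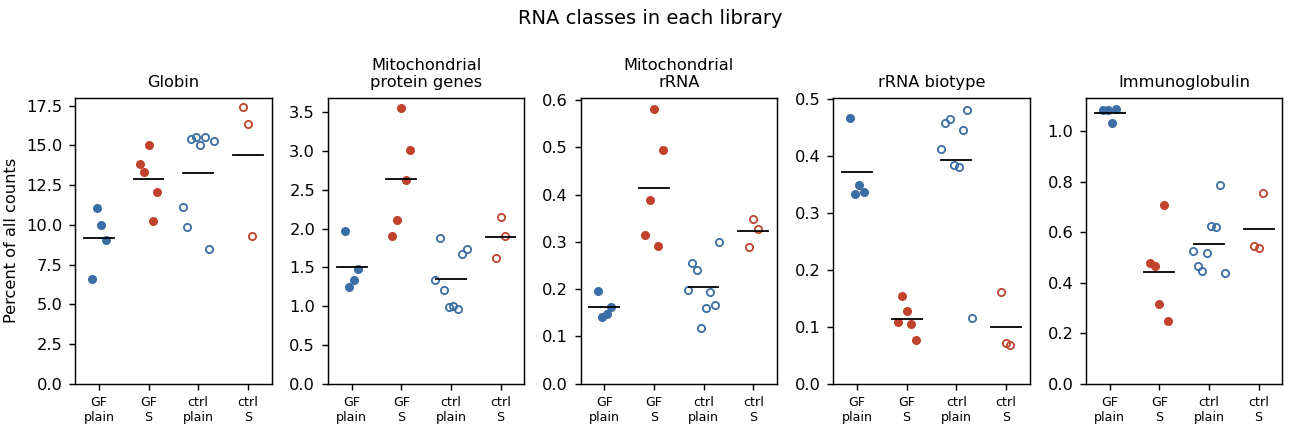
Percent of all counts (vertical axis, from 0) in 5 RNA classes, with 1 point per library, filled for the gluten-free diet (GF) and open for the control diet (ctrl), and a black line at the group mean. The rRNA share is low in all S libraries of both diets and in 1 plain control library, while the immunoglobulin share of the plain gluten-free libraries, 1.03 to 1.09%, lies above all other libraries.

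Most genes of the spleen identity list were lower in S, in a count that moved without single libraries. Of other stromal lists, smooth muscle (37.5% lower) and fibroblast and collagen (31.25% lower) exceeded the 15.4% of all genes, also in counts that moved. Mesothelium, white pulp stroma and endothelium lay near or under that share. Of 8 genes of the spleen identity list 6 fell and none rose, with 3 lower without plain 7 and 1 without plain 8 or 9. Among the 6 were Tlx1 (log2 fold change -0.63 ± 0.21 (SE), edgeR adjusted p = 0.0394) and Tcf21 (log2 fold change -1.09 ± 0.31 (SE), edgeR adjusted p = 0.0209), both transcription factors needed to form the organ. Another of the 6 was Bcl11b, the T lineage factor already counted in the T cell list. Cxcl13, the chemokine that draws B cells into follicles, read 74.9, 91.9, 105, 121 and 52.2 CPM in the S libraries and 174, 88.2, 103 and 125.9 CPM in the plain libraries. It did not pass the test (log2 fold change -0.50 ± 0.24 (SE), edgeR adjusted p = 0.122). Mesothelium, the cell layer over the splenic capsule, had a list median of -1.28, with 2 of 11 genes lower (18.2%), a share near the 15.4% of all genes. White pulp stroma also had 2 of 11 lower (4 without S1, 1 without S3 or any 1 plain library), and endothelium had 1 of 13 (3 without S1, 2 without S6). The fibroblast and collagen list had 5 of 16 lower and 1 higher, with 8 lower without S1 and 0 to 2 without plain 8, 9 or 10, S3, S5 or S8. Smooth muscle had 3 of 8 lower, with 5 without S6 and 0 or 1 without any 1 plain library, S3, S5 or S8. The mesothelium marker Msln read 42.9, 6.07, 6.18, 34.8 and 10.7 CPM in the S libraries and 30.98, 55.3, 66.9 and 45.3 CPM in the plain libraries (log2 fold change -1.36 ± 0.53 (SE), edgeR adjusted p = 0.0656). Saa3, an acute phase protein and one of the 12 lowest fold changes, read 4.796, 0.824, 0.309, 1.04 and 0.387 CPM in the S libraries and 2.03, 4.84, 7.44 and 15.3 CPM in the plain libraries (log2 fold change -2.40 ± 0.71 (SE), edgeR adjusted p = 0.0247). In Msln the libraries S1 and S6, and in Saa3 the library S1, lay within the range of the plain libraries. Without S1 the mesothelium list had 9 of 11 genes lower (6 without S6 or without S1 and S3, 1 without plain 10, S3 or S5, and 0 without plain 9). Msln then passed the test (edgeR adjusted p = 0.0187, or 0.0319 without S6). The Saa3 call was lost without plain 9, plain 10, S3 or S5 (edgeR adjusted p = 0.0516, 0.0924, 0.0579 and 0.0504). That of Tcf21 was lost without plain 8 or plain 9 (edgeR adjusted p = 0.0532 and 0.0648). The Tlx1 call was lost without any 1 plain library, S6 or S8 (edgeR adjusted p = 0.0560 to 0.102). Immediate early genes fell in 10 of 20 cases with 1 higher, such as Fos (log2 fold change -1.17 ± 0.27 (SE), edgeR adjusted p = 0.00793). Clock genes fell in 5 of 17 (29.4%, beside 15.4% of all genes, and 3 genes without plain 7), Per1 with log2 fold change -0.75 ± 0.14 (SE), edgeR adjusted p = 0.00344. Heat shock genes were mixed, 5 of 14 higher (35.7%, and 3 genes without plain 8) and 3 lower (21.4%), beside 16.6% and 15.4% of all genes. The inducible Hspa1a was low at 0.959, 0.1302, 0.185, 0.217 and 0.387 CPM in S and 1.604, 1.24, 1.44 and 1.22 CPM in plain libraries (log2 fold change -1.95 ± 0.48 (SE), edgeR adjusted p = 0.0111). The hour of dissection and the time to freezing are not given in the sources used here.

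The 12 highest fold changes among called protein-coding genes were Zg16, Cela1, Dmbt1, Rnase1, Cpa1, Prss2, Cel, 2210010C04Rik, Cpb1, Pnliprp1, Cela2a and Ctrb1, mostly digestive enzymes and secreted proteins of the pancreas, and library S1 carried them. Prss2, a trypsinogen, read 884, 2.21, 0.247, 0.217 and 0.111 CPM in the S libraries and 0.0844, 0.171, 0.152 and 0.106 CPM in the plain libraries. Ctrb1, a chymotrypsinogen, read 2376 CPM in S1 and 4.51 CPM in S3 and was at 0 in the other 7 gluten-free libraries, where a count of 0 allows up to 0.114 to 0.185 CPM. Cela1, an elastase, read 1299.6, 12.2, 6.05, 6.18 and 8.08 CPM in the S libraries and 6.92, 9.47, 9.19 and 7.99 CPM in the plain libraries. Apart from S1, every S value of Cela1 lay between 6.05 and 12.2 CPM, near the plain values. The calls of these 3 genes were lost without S1 (edgeR adjusted p = 0.0678, 0.0723 and 0.781) and without any 1 plain library. Of 13 tested acinar genes 7 rose, 13 without S6 and 0 without S1 or any 1 plain library. Among control libraries, plain 4 also held acinar genes, at 0.108% of its counts. Without S1, 5791 genes were called. The highest fold changes were then led by Rnase1 at 3.01, Hbb-y at 2.11, Gm14862 at 1.98, Erfe at 1.88, Cldn20 at 1.87 and mt-Co3 at 1.86 (edgeR adjusted p = 0.0143, 0.00427, 0.0109, 0.00445, 0.00954 and 0.0032). Without both S1 and S3, 4657 genes were called.

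Under the control diet fewer genes differed between the ID forms. In the 11 control libraries, 396 of 18362 genes (2.16%) differed between 3 S and 8 plain libraries, 301 higher in S (1.64%) and 95 lower (0.517%). That count rests on single libraries. Without control S1 or without control S2 edgeR called 0 genes (1985 and 2034 at an unadjusted p under 0.05). Without control S6 it called 942 and without control plain 5 it called 650, and DESeq2 on all 11 called 910. The 2 comparisons share no library. Of the genes lower in control S, 41 were also lower in gluten-free S. That is 43.2% of the first list and 1.45% of the second, beside 15.4% and 0.517% of all genes. These 41 held 17 genes of the biotype TEC (transcripts to be experimentally checked), 8 lincRNAs and 6 protein-coding genes, and none of them had a called difference between the diets. Of the 301 genes higher in control S, 3 were also higher in gluten-free S and 46 were lower there, beside 16.6% and 15.4% of all genes. Of the 95 genes lower in control S, 11 were higher in gluten-free S, beside the same 16.6%.

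The difference itself, S minus plain under gluten-free less S minus plain under control, was called in 4545 genes (24.8%), 2825 positive (15.4%) and 1720 negative (9.37%). It was positive in 24 of 30 red cell genes, in all 24 DNA replication genes and in 22 of 24 mitosis genes, whose control medians were 0.09, -0.14 and 0.00. It was negative in 17 of 18 neutrophil granule genes, whose control median was 0.82. It was also negative in 16 of 17 megakaryocyte genes: 0 were called under gluten-free, while under control 16 were higher in S with a median of 1.53. Pf4 read 706, 659 and 222 CPM in control S1, S2 and S6 and 113 to 299 CPM in control plain libraries, so control S6 lay within the plain range (difference between diets -1.33 ± 0.41, edgeR adjusted p = 0.0218). In the mitochondrial genome list, with a control median of 0.65 and 0 of 12 called by edgeR, no gene had a called difference.

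**Figure D4:**
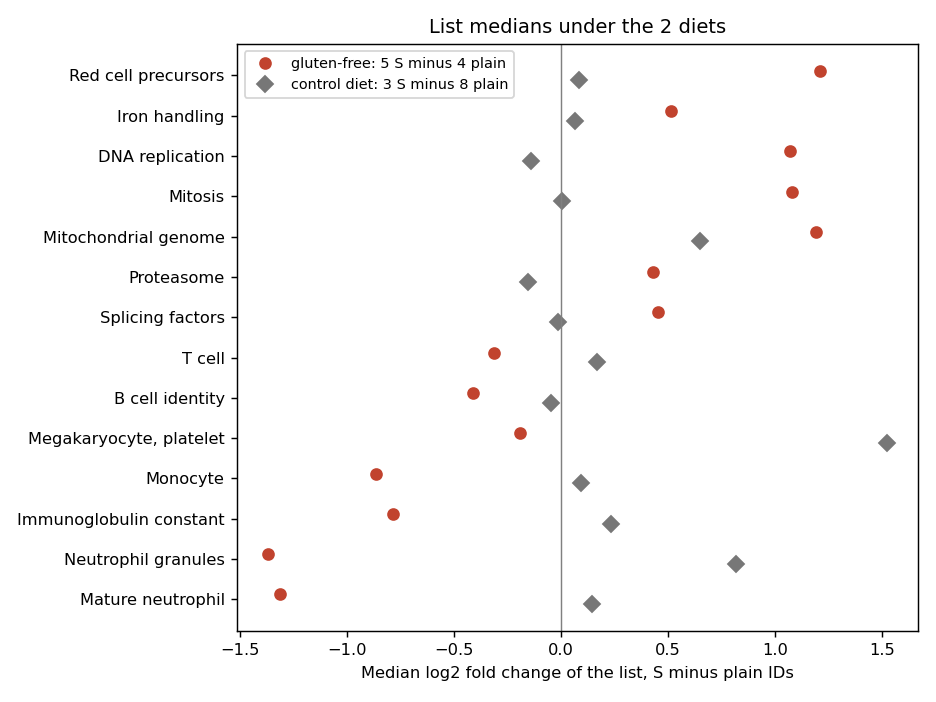
Median log2 fold change of each gene list, S minus plain IDs (horizontal axis), for the gluten-free diet as circles (5 against 4 libraries) and the control diet as diamonds (3 against 8 libraries). Medians of the red cell, replication and mitosis lists are near 1.1 to 1.2 under gluten-free and near 0 under control, and the megakaryocyte list lies at -0.19 under gluten-free and 1.53 under control.

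Single genes with the smallest p-values of that difference were Eef1e1, Clcn2, Noct, Erfe, Ccne1, Ppp1r8, Tfr2 and Sec14l2. Erfe was higher in S under gluten-free and lower in S under control, where it read 1.42, 1.91 and 1.84 CPM in S libraries and 2.48 to 9.08 CPM in plain libraries (difference 3.50 ± 0.50, edgeR adjusted p = 0.00163). Clcn2, a chloride channel, went the same way. It read 34.9, 36.3, 53.1, 26.9 and 56.7 CPM in the S libraries and 16.5, 16.4, 17.5 and 17.8 CPM in the plain libraries, with a control fold change of -0.71 (difference 2.00 ± 0.27, edgeR adjusted p = 0.00163). Noct, a phosphatase under clock control, and Sec14l2, a lipid-binding protein, rose by 1.01 and 1.39 under gluten-free (edgeR adjusted p = 0.00115 and 0.00282), and Eef1e1, a factor of the tRNA synthetase complex, rose by 0.79 (edgeR adjusted p = 0.00267). Xist, which silences 1 X chromosome in female cells, was present in all 9 gluten-free libraries. It read 1220, 1293, 1443, 1276 and 1459.8 CPM in the S libraries and 1117, 891, 888 and 885 CPM in the plain libraries (log2 fold change 0.46 ± 0.12 (SE), edgeR adjusted p = 0.0138).

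Levels of 3 lists were set side by side in the 4 groups. The mean log2 CPM of the red cell list was 8.65 ± 0.331 in plain gluten-free libraries, below the 9.86 ± 0.430 of gluten-free S, the 9.89 ± 0.299 of control plain and the 9.91 ± 0.508 of control S libraries (SD, n = 4, 5, 8 and 3). For DNA replication the means were 6.25 ± 0.148 in plain gluten-free libraries and 7.33 ± 0.412, 7.38 ± 0.246 and 7.19 ± 0.324 in the same order of the others. For neutrophil granules they were 6.06 ± 0.496 in plain gluten-free libraries and 4.60 ± 0.95, 4.39 ± 0.536 and 5.11 ± 0.521 in the others. In the red cell and replication lists no library of another group lay as low as the highest plain gluten-free library, whereas in the neutrophil list 1 S library reached 5.65, within the plain gluten-free range of 5.46 to 6.67. 

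Models with a second measure called no gene. With the mean log2 CPM of the red cell list as a covariate, edgeR called 0 genes (1620 at an unadjusted p under 0.05). With the rRNA share as a covariate it called 0 (1029 at an unadjusted p under 0.05), where DESeq2 was not run. All S libraries lay above all plain libraries in the first measure and below them in the second, so in these 9 libraries the ID form and either measure cannot be told apart. The first measure is also the mean of genes under test, so the smaller and turned values of red cell genes with it are built in and carry no information. Of 95 named genes, 24 turned direction with the red cell covariate and 20 with the rRNA covariate. These were not only red cell genes: Rsad2 turned with both, and Cd74 with the first. In Prg2, Epx and Cd209a, given as examples, fold changes were of similar or larger size without passing the test. For the reason given above, these values cannot separate the ID form from either measure. With the red cell covariate and with the rRNA covariate, Prg2 had log2 fold changes of -5.25 and -6.59 (edgeR adjusted p = 0.0831 and 0.225). Epx had -6.71 and -7.45 (edgeR adjusted p = 0.0896 and 0.623), and Cd209a had -1.32 and -1.50 (edgeR adjusted p = 0.386 and 0.879).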

How the data were processed

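Whole-spleen total RNA of 20 mouse libraries was sequenced on a NovaSeq, per the labels' protocols. The authors deposited 1 table of raw read counts per gene. CASAVA, HISAT2 2.0.5, featureCounts 1.5.0 and GRCm38 (mm10) are named in the submitters' processing notes. The annotation release, strand setting and treatment of reads with several matches are not given in the sources used here, so genes with near-identical copies and genes with an antisense or overlapping partner are uncertain.

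Libraries were grouped by diet and by the form of the ID in the title. Of 54532 genes, 18362 passed filterByExpr over the 4 groups. edgeR 4.0.16 (R 4.3.3) tested S minus plain by its quasi-likelihood test with TMM scaling and Benjamini-Hochberg adjustment over all 18362 genes. Fits were made on 9 gluten-free libraries, on 11 control libraries, and as an interaction of a 4-group fit. The standard error is the absolute log2 fold change over the root of F. CPM values use TMM over all 20 libraries, which offsets ratios of group means by 0.048 log2 from the fitted values. A prior count of 2 was used in log2 CPM. DESeq2 1.42.0 and limma 3.58.1 served as alternatives. Shares of counts per library were compared by exact permutation and p-values were adjusted over 9 measures, 3 of them planned. The pipeline was tested on simulated counts.

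The members and the 54 gene lists were chosen with earlier results of these data known. Named genes are 12 at each end of the fold change ranking (protein-coding, called, mean CPM 1 or more). They are also up to 3 most abundant members and the most changed called member of each list, 8 genes with the smallest p of the difference between diets, and 9 fixed genes. Slc4a1, Car2, Alas2, Klf1, Hbb-y, Mpo, Il5ra, Ccr2, Spic, Cd3e, Siglech, Tlx1, Rhd, Trim10, Mcm5, Gm14862, Cldn20, Alb and Apoa1 were named after their values were seen. Also chosen after seeing the data were the fits without S1 and S3, on protein-coding genes and with the rRNA covariate, and the list counts without single libraries. Symbols that the file held as dates were restored for 27 genes. Counts of gluten-free libraries of the same ID form differed by more than sampling noise (chi-square per degree of freedom 6.14 to 106), so each was counted as 1 sample, which does not show that they come from separate mice. Control pairs were not checked. Intervals and floors (3 counts) cover counting error only.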

Additional observations from a re-analysis of the deposited data

Results flagged for a closer look

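In each gluten-free form 94 named genes and 8 library measures were checked. Gaps were judged against the range of the form, so a small gap can count. Single libraries stood apart from the others of their ID form in 17 of these checks, where chance alone gives about 1 in 20. Of these, 6 were high values of S1: Ctrb1 at 2376 CPM beside a next highest value of 4.51, Cela1 at 1299.6 beside 12.2, Prss2 at 884 beside 2.21, Saa3 at 4.80 beside 1.04, Epx at 0.903 beside 0.277 and Ear6 at 0.339 beside 0. S6 was high in Siglech at 19.01 CPM beside 9.21 and in Il10 at 1.00 beside 0.564, and S3 was high in Ifng at 1.26 CPM beside 0.387, while S8 was low in Tsc22d3 at 63.9 CPM beside 84.7. Among plain libraries, 7 was low in Sec14l2 (21.2 CPM beside 26.1), Mcm5 (166 beside 198) and Mcm6 (203 beside 229), and high in Foxp3 (13.8 beside 11.1) and in the rRNA share (0.467%). Plain 10 was high in Lyz2 (1991 CPM beside 1499.4) and plain 9 low in the immunoglobulin share (1.03%).

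The S minus plain difference was itself different between the diets in 51 of the named genes, by the interaction contrast of edgeR at an adjusted p under 0.05, 27 with a positive and 24 with a negative value. Of all genes, 24.8% had such a call. The naming rule takes genes with the smallest p of this difference and from the ends of the gluten-free ranking, so a high count among named genes is in part built in. Values are gluten-free less control on the log2 scale. Red cell and iron genes had positive values: Erfe 3.50, Tfr2 1.67, Klf1 1.59, Kel 1.56, Tfrc 1.49, Rhd 1.47, Car2 1.42, Trim10 1.38 and Slc4a1 1.30. Cell division genes did too: Ccne1 1.85, Cdc6 1.74, Pcna 1.49, Mcm5 1.24, Mki67 1.22 and Mcm6 1.10. Other genes with positive values were Clcn2 2.00, Sec14l2 1.89, Noct 1.54, Eef1e1 1.37, Isg15 1.15, Etfa 0.80, Fdft1 0.76, Atp5b 0.73 and Hnrnpa2b1 0.70. In pancreatic genes the values were Ctrb1 25.4, Prss2 16.5 and Cela1 6.08, which rest on S1, and those of Ctrb1 and Prss2 are set by libraries at or near 0 and bound no fold. Neutrophil genes had negative values: Padi4 -2.54, Mmp8 -2.35, Ltf -2.29, Mpo -2.26, Ngp -2.14 and S100a8 -2.10. Among eosinophil genes the values were Epx -3.68, Alox15 -3.19, Siglecf -2.78, Ear2 -1.92 and Prg3 -1.84, and among monocyte and dendritic cell genes they were Cd209a -1.12, Ccr2 -0.91, Lyz2 -0.88 and Csf1r -0.61. Antibody genes gave Jchain -1.40, Ighm -1.23 and Igkc -1.19, platelet genes Ppbp -1.66 and Pf4 -1.33, and capsule and stroma genes Saa3 -3.18, Msln -2.33 and Tcf21 -1.30, with Pkm at -0.91.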

How the results depend on the processing

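Scaling, filters, DESeq2, limma-voom, the fit of all 20 libraries and leaving genes or S1 and S3 out gave 4657 to 7415 calls, and voom quality weights gave 8738. A threshold of 0.01 gave 2415, a 1.5-fold minimum 3609, and the red cell covariate and the rRNA covariate 0 each (1620 and 1029 at an unadjusted p under 0.05). Leaving out 1 library gave 4039 to 7494. The control count of 396 was 910 by DESeq2 and 0 to 942 without 1 library. The difference between diets gave 3587 to 5418 genes without 1 library. ID numbers are shared by both diets only in 7, 8, S1 and S6, and deviations of same-numbered libraries correlated by -0.17, -0.20, 0.09 and 0.38, so these numbers were not taken as pairs. With the ID as a replicate block these 8 libraries gave 6 genes (1051 unadjusted), and 0 without the block. Without 1 library the difference in total counts ran from -44190 to 2078000 (exact permutation p = 0.286 to 1, direction turned without plain 10), that in genes detected from -1408 to -988.2 and that in the mitochondrial share from 0.903 to 1.316 points (exact permutation p = 0.0286 to 0.0714 for both). Direction turned in the following log2 fold changes and list medians. With the red cell covariate, which is built from red cell genes under test, it did in Hba-a1 -0.26, Hbb-bt -0.63, Slc4a1 -0.12, Alas2 -0.16, Klf1 -0.04900, Mki67 -0.0302, Mxd1 -0.0501, Il5ra 0.95, Lyz1 0.27, Cd79a 0.69, Ighd 0.90, Cd3e 0.36, Bcl11b 0.22, Foxp3 0.65, Cd74 0.00944, Rsad2 -0.0834, Tnf 0.77, Il10 0.34, Tgm2 -0.40, Cxcl13 0.66, Atp5b -0.12, Trim10 -0.0409, Mcm5 -0.00248, Mcm6 -0.0408, red cell list -0.0563, mitosis list -0.18, T cell list 0.48, B cell identity list 0.69, nuclear oxidative phosphorylation list -0.0571 and proteasome list -0.0187. With the rRNA covariate it did in Hba-a1 -0.47, Slc4a1 -0.35, Alas2 -0.23, Mxd1 -0.22, Il5ra 0.74, Cd79a 0.19, Ighd 0.44, Ighg2c 0.53, Cd3e 0.43, Bcl11b 0.52, Foxp3 0.79, Rsad2 -0.43, Tnf 0.82, Tgm2 -0.53, Cxcl13 1.05, Ctrb1 -14.32, Prss2 -12.19, Rhd -0.0979, Trim10 -0.15, Fdft1 -0.12, red cell list -0.11, mitosis list -0.0635, immunoglobulin constant list 0.0176, T cell list 0.50, B cell identity list 0.42 and type I interferon list -0.0495. Library totals alone turned Tgm2 -0.20, ribosomal protein list -0.05002 and type I interferon list -0.11, and quality weights turned Ppbp 0.0702, Pf4 0.0367, Ifng 0.19 and Tgm2 -0.00882. Ppbp was 0.0366 by DESeq2 and RLE factors, 0.0406 in the fit of all libraries and 0.0162 on protein-coding genes. Without S1 and S3 the values were Ctrb1 0 and Cela1 -0.35. Without S1 they were Ifng 0.000351 and Cela1 -0.0888, without S5 Slc40a1 0.0589 and Ppbp 0.04500, without S6 Slc40a1 0.12, Ppbp 0.14 and Pf4 0.0977, without S8 Ppbp 0.0551, Pf4 0.0327 and Tgm2 -0.0106, without plain 8 Slc40a1 0.0165, Ppbp 0.0624 and Pf4 0.00294 and without plain 9 Ppbp 0.0622 and Pf4 0.01003. Over all 9 ways to leave out 1 library, Ifng ran from -0.99 to 0.000351 and Cela1 from -0.0888 to 5.28. Apart from the covariates, the genes whose direction turned had no call, except Cela1 and Ctrb1. Xist was not called with library totals alone (0.18, edgeR adjusted p = 0.189). The causes were not tested. Depth limits genes near 0.1 CPM, and 9 libraries cannot give an exact permutation p under 0.0159, or under 0.0286 with 1 of them left out.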

Other observations

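Genes that respond to glucocorticoids were lower in gluten-free S libraries in 6 of 10 cases and higher in 1 (median -0.47), beside 15.4% of all genes lower and 16.6% higher, and 3 were lower without plain 9 or plain 10. Zbtb16, the transcription factor PLZF, averaged 1.35 ± 0.295 CPM in S and 2.75 ± 0.415 CPM in plain libraries (SD, n = 5 and 4), with all S libraries below all plain libraries (log2 fold change -1.07 ± 0.24 (SE), edgeR adjusted p = 0.00713). Tsc22d3, the leucine zipper protein GILZ, and Ddit4, an inhibitor of mTORC1, fell by 0.61 and 0.55 on the log2 scale with overlapping ranges (edgeR adjusted p = 0.0150 and 0.0275). The Tsc22d3 and Ddit4 calls were lost without plain 9 (edgeR adjusted p = 0.0534 and 0.0941) or plain 10 (edgeR adjusted p = 0.0524 and 0.0806). None of the 3 had a called difference between the diets (edgeR adjusted p = 0.360 to 0.970).

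Lymphoid genes outside the lists above gave single calls. Klf2, which governs the exit of T cells from lymphoid organs, read 97.8, 108, 88.6, 119 and 62.4 CPM in the S libraries and 148, 148, 153 and 158 CPM in the plain libraries (log2 fold change -0.72 ± 0.15 (SE), edgeR adjusted p = 0.00575). Of 10 genes of naive T cells 4 fell, or 1 or 2 without any single library other than S6. Vpreb3, a chaperone of immature B cells, fell by 0.63 (edgeR adjusted p = 0.00550), and Flt3, a receptor of lymphoid and dendritic cell progenitors, fell by 0.74 (edgeR adjusted p = 0.00996), each with all S libraries below all plain libraries. Their lists held few calls beside the 15.4% of all genes lower. Of 11 B cell precursor genes 2 fell (1 without any single library other than S6). Of 13 haematopoietic progenitor genes 1 fell (4 without S1, 2 without S6). In metabolism, Etfa, which passes electrons from fatty acid oxidation to the respiratory chain, averaged 69.6 ± 11.9 and 43.6 ± 1.52 CPM, and Fdft1, the squalene synthase, averaged 46.4 ± 6.92 and 25.9 ± 4.24 CPM, each with all S libraries above all plain libraries (log2 fold changes 0.63 and 0.79, edgeR adjusted p = 0.00513 and 0.00363). Their lists were mixed, beside 16.6% of all genes higher and 15.4% lower. Fatty acid oxidation had 5 of 16 genes higher and 1 lower, with 2 or 3 higher without any single plain library, S5 or S8, and cholesterol synthesis had 3 of 16 higher and 3 lower, with 0 or 1 lower without any single plain library, S1, S5 or S8, and 1 higher without plain 9.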
